A study of Mus musculus with 20 samples.

Results

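The transcription factor p53 (gene Trp53) and 9 of its target genes were followed across 7 cell type labels of a mouse RNA sequencing series on host cells that grew beside a human glioma. The 10 genes were taken by symbol from the deposited annotation, which lists 43432 genes in all: Trp53, Mdm2, Cdkn1a, Bax, Bbc3, Pmaip1, Ccng1, Sesn2, Gadd45a and Trp53inp1. Each was found once, and all 10 passed the filter on low counts, which kept 15779 genes. The rule goes by name and uses no measured value. In that annotation, for which no source used here names a genome build, Trp53 lies on chromosome 11 (69580359 to 69591873, plus strand), Mdm2 on chromosome 10 (117688888 to 117710758, minus), Cdkn1a on chromosome 17 (29090979 to 29100722, plus), Bax on chromosome 7 (45461695 to 45466898, minus), Bbc3 on chromosome 7 (16309616 to 16318205, plus) and Ccng1 on chromosome 11 (40748552 to 40755311, minus). Gadd45a lies on chromosome 6 (67035096 to 67037457, minus) and Sesn2 and Trp53inp1 on chromosome 4 (132492032 to 132510501, minus, and 11156431 to 11174379, plus). All 10 are listed as protein-coding.

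All 20 libraries came from nude mouse cells kept in DMEM with 10% fetal bovine serum, and the labels speak of monoclonal culture, so a line may stand for 1 clone. Of the 7 groups, 5 are cell lines labelled as malignantly transformed by SU3, a human glioma stem cell line. C12 stands for macrophages transformed in vitro among peritoneal washing cells cultured with SU3. The label ih_CTC stands for transformed macrophages taken from a xenograft in the peritoneum, and ih_DCTC for dendritic cells transformed when bone marrow dendritic cells were grown with SU3. The ih_STC_BM line was grown out of a SU3 tumour in mice with damaged and rebuilt bone marrow and is labelled as mesenchymal stem cells, and ih_BCTC was grown out of a SU3 brain tumour and is labelled as oligodendrocytes. The other 2 groups are named as precursors: MDSC, myeloid-derived immunosuppressive cells, and MSC, mesenchymal stem cells of normal bone marrow. The labels do not say which line stems from which precursor group, so lines were paired with them here by the cell type in their label, and ih_BCTC, which has no counterpart, was set against MSC. Each group had 3 libraries except MSC with 2. The labels state no p53 genotype, age, sex or batch, and they do not say whether the libraries of a group came from separate cultures, so a p-value here reflects the spread of these libraries alone, which may be technical.

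As background, p53 is held at a low protein level by Mdm2, a ubiquitin ligase that marks it for destruction and is itself a p53 target, and its messenger RNA level says little about its activity. DNA damage and other stresses release p53 from Mdm2, and it then binds a paired palindromic motif in DNA and raises genes that stop the cell cycle, repair DNA, restrain growth signals or start apoptosis. Cdkn1a encodes the kinase inhibitor p21, Gadd45a a stress protein of growth arrest, and Ccng1 cyclin G1, which feeds back on Mdm2. Bax opens the mitochondrial outer membrane in apoptosis, and Bbc3 (Puma) and Pmaip1 (Noxa) are BH3-only proteins that set it free to act. Sesn2 restrains the growth kinase complex mTORC1, and Trp53inp1 acts in stress-induced autophagy and apoptosis. Several of these genes also answer to other factors, among them ATF4 in the integrated stress response. Loss of p53 function or of its upstream activator p19ARF, a product of Cdkn2a, is a common route to immortal growth of mouse cells.

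Promoter stretches of these genes that hold a match to the core of the p53 motif are shown. RefSeq promoter windows (GRCm38.p6, 250 bases before to 50 after a start) were found for 8 of the 10 genes, 11 windows in all, and not for Pmaip1 and Trp53inp1. The search was for a single 10-base p53 core motif, which reads the same on both strands, and not for the paired motif that p53 binds. A match stood in 6 of the 11 windows, in 6 of the 8 genes, beside 2745 of 32851 windows (8.36%) of all genes. The windows of Bbc3 and Sesn2 held no match. Sequences run 5′ to 3′ on the strand of the gene, 20 bases stand on each side of the match, and capitals mark the match.
Gadd45a chr6:67037418-67037467 minus strand: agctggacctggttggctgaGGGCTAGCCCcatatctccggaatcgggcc
Bax chr7:45467070-45467119 minus strand: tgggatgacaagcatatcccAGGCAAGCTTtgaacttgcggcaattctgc
Mdm2 chr10:117710915-117710964 minus strand: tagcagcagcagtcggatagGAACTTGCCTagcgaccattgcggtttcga
Ccng1 chr11:40755442-40755491 minus strand: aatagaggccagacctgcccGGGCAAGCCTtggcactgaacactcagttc
Trp53 chr11:69580264-69580313 plus strand: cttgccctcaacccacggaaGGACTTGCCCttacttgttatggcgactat
Cdkn1a chr17:29090886-29090935 plus strand: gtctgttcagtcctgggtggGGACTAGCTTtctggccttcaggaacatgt
Cdkn1a chr17:29090908-29090957 plus strand: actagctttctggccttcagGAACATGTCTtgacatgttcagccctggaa
The first base of the match lies before the start in each case, 40 bases in Gadd45a, 201 in Bax, 186 in Mdm2, 185 in Ccng1, 75 in Trp53 and 73 and 51 in Cdkn1a. The second Cdkn1a stretch overlaps the first. The letters TGATGNAA, a core read by ATF4 together with CEBP factors, were searched on both strands and stood in 0 of the 11 windows and in 3.97% of all. These matches are a description of letters in a short window and do not show that a factor binds there.

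Total expected counts ran from 8794777 to 12400640 per library, and levels are given as CPM, counts relative to the TMM-scaled library total, which compare 1 gene between samples and not 1 gene with another. Marker levels went against several labels. Summed over 8 pan-leukocyte markers, the lines held 1.95 to 21.9 CPM, 5867 to 5939 CPM were found in MDSC and 2256 to 3339 CPM in MSC, while 8 mesenchymal markers summed to 2676 to 11210 CPM in the lines, 5068 to 5629 in MSC and 54.2 to 56.9 in MDSC. The MDSC libraries also held granulocyte (38450 to 41050 CPM), lymphocyte (37750 to 39570) and erythroid (11980 to 12310) markers, and the MSC libraries held 8 macrophage markers at 4185 to 4863 CPM. Of 8 oligodendrocyte markers, 4 were under 1 CPM in ih_BCTC, with Olig2, Sox10 and Mog at 0, and their sum of 375.8 to 536.6 CPM stood above MDSC (140.7 to 161.4) and MSC (114.2 to 127.9) and beside ih_DCTC (438.7 to 578.3). The share of mapped reads in introns lay between 9.64% and 10.36% for MDSC. It read 2.07% and 3.09% for MSC and ranged from 1.02% to 8.52% over the lines, where 5 libraries lay under 3% (C12 1, C12 2, ih_DCTC 1, ih_STC_BM 1 and ih_STC_BM 3). The 3 MDSC libraries were more alike than those of any other group, with a mean chi-square per gene of 1.72 to 3.32 against 25.6 to 282.3 elsewhere, but their values were not identical and they were kept as 3. A lower level in bulk RNA cannot be told apart from fewer cells that carry the gene.

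Against MDSC, the 3 lines labelled as myeloid had p53 targets called in both directions, in shares near those of all tested genes. Bax and Ccng1 were higher in C12, ih_CTC and ih_DCTC, Cdkn1a was higher in C12 and ih_DCTC, and Pmaip1, Gadd45a and Trp53inp1 were lower in all 3 lines. In C12, 7 of the 10 genes were called at an edgeR adjusted p under 0.05, 4 higher (Trp53 the fourth) and 3 lower, where 61.7% of all tested genes were called, 31.3% higher and 30.5% lower. In ih_CTC 5 were called, 2 higher and 3 lower, beside 55.3% of all genes (28.2% higher, 27.1% lower), and in ih_DCTC 6 were called, 3 higher and 3 lower, beside 59.3% (31.2% higher, 28.1% lower). The median log2 fold change of the 10 genes was 0.40, -0.29 and 0.47 in these comparisons, beside 0.03, 0.08 and 0.09 over all tested genes. These shares lie near the background, and the 3 comparisons share the MDSC libraries. Upper quartile scaling gave 4 higher and 3 lower in ih_CTC and 5 higher and 2 lower in ih_DCTC. In that fit 8922 and 9550 of 15779 tested genes were called.

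The comparison of MDSC with MSC, the groups named as precursors, gave 6 calls among the same 10 genes. Of all tested genes 46% were called there, 20.4% higher and 25.6% lower. Pmaip1, Gadd45a and Trp53inp1 were higher in MDSC than in MSC, and Cdkn1a, Bax and Ccng1 were lower. Without any 1 of the MDSC libraries Cdkn1a, Ccng1 and Trp53inp1 were no longer called. Calls were also lost without either MSC library and with the MDSC libraries summed to 1. These fits leave 1 library in a group, so no count is given for them. With MDSC summed to 1, calls over all tested genes fell too. Set against MSC, fewer of these genes were called, and the counts changed with the fit. In ih_STC_BM 1 gene, Trp53, was higher, beside 32.1% of all genes called (14.8% higher, 17.4% lower). In ih_BCTC 0 of the 10 were called by edgeR, beside 36.7% of all genes (15.9% higher, 20.8% lower), with 0 at an unadjusted p under 0.05. DESeq2 and limma-voom also called 0, beside 6204 of 15719 and 6131 of 15779 genes. With only the groups compared 3 were called (beside 58.4% of all genes). The intron share as a covariate gave 3 (beside 46.8%), and leaving out the low-intron libraries gave 2 (beside 56.4%). The equal-weight mean of the 5 lines against MSC gave 0 calls by edgeR, beside 39.5% of all genes, with Trp53 alone under 0.05 before adjustment. DESeq2 gave 1 call (beside 6525 of 15719 genes) and limma-voom 0 (6403 of 15779). Upper quartile scaling gave 1 (6282 of 15779), no filter 1 (6193 of 24169) and the intron share as a covariate 3 (8423 of 15779). Leaving out the low-intron libraries leaves C12 and ih_STC_BM with 1 library each, so no count is given for it. The MSC comparisons share the 2 MSC libraries. Of the other pairs of a line with MDSC or MSC, ih_STC_BM against MDSC called 7 of the 10 (beside 61.7% of all genes), ih_BCTC against MDSC 6 (55.9%), C12 against MSC 1, Pmaip1 (33.1%), and ih_CTC and ih_DCTC against MSC 0 each (34.6% and 34.1%), with 0 at an unadjusted p under 0.05 in both; DESeq2 and limma-voom were not run on these pairs.

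**Figure D1:**
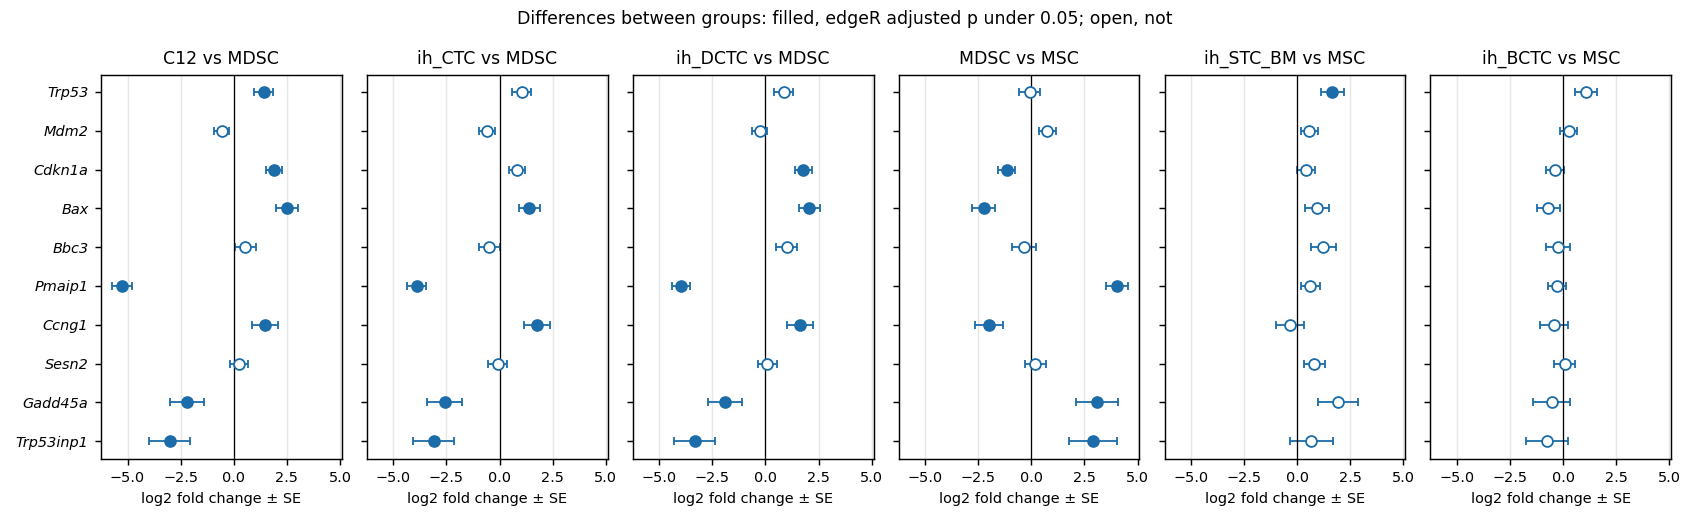
Log2 fold change (horizontal axis, bars are standard errors from edgeR) of each of the 10 genes in 6 comparisons, the group named first minus the second; filled points had an adjusted p under 0.05. Pmaip1, Gadd45a and Trp53inp1 lie on the opposite side from Bax and Ccng1 wherever MDSC is compared, and only Trp53 in ih_STC_BM is filled in the comparisons of lines with MSC.

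Trp53 was higher in most line libraries than in the groups named as precursors. The 2 MSC libraries held 96.4 and 98.5 CPM and the 3 MDSC libraries 94.7, 89.3 and 93.02 CPM. C12 held 231, 352 and 154 CPM, ih_CTC 206, 195 and 166, ih_DCTC 201, 201 and 96.7, ih_STC_BM 306, 87.9 and 529 and ih_BCTC 246, 204 and 163. Of the 15 line libraries, 13 lay above both MSC libraries and 14 above all MDSC libraries; the exceptions were ih_STC_BM 2, below both groups, and ih_DCTC 3, between the 2 MSC libraries. The order of the means ran from ih_STC_BM at 308 ± 221 CPM (SD, n = 3) through C12, ih_BCTC, ih_CTC and ih_DCTC to MSC at 97.5 ± 1.47 CPM (SD, n = 2) and MDSC at 92.4 ± 2.76 CPM (SD, n = 3), and no neighbours in that order passed the test (adjusted p 0.277 to 0.996). ih_STC_BM 3 was at 529 CPM and ih_STC_BM 2 at 87.9 under the same label, so the spread within that line covers all other groups.

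In C12 the Trp53 level exceeded that of MDSC by 1.41 ± 0.46 (SE), adjusted p = 0.0133. ih_CTC and ih_DCTC had the same sign and did not pass (1.03 ± 0.46 (SE), adjusted p = 0.0635, and 0.85 ± 0.45 (SE), adjusted p = 0.118). Both passed with upper quartile scaling (adjusted p = 0.0317 and 0.0496) and without the low-intron libraries (0.00183 and 0.0363). They also passed with only the groups compared (2.42e-05 and 0.0341), while ih_DCTC turned with the intron share as a covariate (-0.68). Against MSC, Trp53 rose in ih_STC_BM (1.66 ± 0.54 (SE), adjusted p = 0.0249), and its difference was 1.07 ± 0.52 (SE), adjusted p = 0.121 in ih_BCTC and 1.16 ± 0.46 (SE), adjusted p = 0.055 for the mean of the 5 lines. MDSC and MSC differed by -0.08 ± 0.50 (SE), adjusted p = 0.923. The C12 call was lost without C12 2 (1.09, adjusted p = 0.0581), without the low-intron libraries (0.75, adjusted p = 0.0588) and with MDSC summed to 1 (1.31, adjusted p = 0.167), and the sign turned once the intron share entered the fit as a covariate (-0.68, adjusted p = 0.249). The ih_STC_BM call was lost without ih_STC_BM 3 (1.07, adjusted p = 0.106) or either MSC library (adjusted p = 0.136 and 0.127), and turned without the low-intron libraries, which leaves ih_STC_BM 2 alone (-0.19), while the mean of the lines passed without C12 3, ih_DCTC 3, ih_STC_BM 2 or ih_STC_BM 3 (adjusted p = 0.0402, 0.0398, 0.00375 and 0.0391).

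Mdm2, the ubiquitin ligase that restrains p53, did not pass the test in any of the 6 comparisons or any of the 21 pairs of groups. MDSC held the highest mean, 211 ± 9.48 CPM (SD, n = 3), and MSC the lowest, 126 ± 5.63 CPM (SD, n = 2). The libraries read 128, 72.1 and 226 CPM in C12, 147, 146 and 127 in ih_CTC, 189, 160.2 and 174 in ih_DCTC, 107, 293 and 161 in ih_STC_BM and 193, 143 and 116 in ih_BCTC. The lowest and the highest line libraries, C12 2 and ih_STC_BM 2, thus lay on either side of both precursor groups, and 13 of 15 line libraries lay below all 3 MDSC libraries. The log2 difference from MDSC was -0.57 in C12, -0.59 in ih_CTC and -0.28 in ih_DCTC, each with a standard error of 0.36. Trp53 was called in 4 of the 21 pairs, among them ih_STC_BM and ih_BCTC against MDSC (1.73 ± 0.46 (SE), adjusted p = 0.00375; 1.15 ± 0.46 (SE), adjusted p = 0.0414). In these 4 pairs Mdm2 differed by -0.57 ± 0.36 (SE), adjusted p = 0.179 in C12 against MDSC, 0.57 ± 0.41 (SE), adjusted p = 0.313 in ih_STC_BM against MSC, -0.18 ± 0.36 (SE), adjusted p = 0.69 in ih_STC_BM against MDSC and -0.49 ± 0.36 (SE), adjusted p = 0.267 in ih_BCTC against MDSC. Without C12 3 the lower C12 level passed (-1.08, adjusted p = 0.0151). With only the groups compared Mdm2 passed in ih_CTC against MDSC (-0.64, adjusted p = 0.000174) and in MDSC against MSC (0.77, adjusted p = 0.000169). Both also passed without the low-intron libraries (-0.60, adjusted p = 0.00606, and 0.71, adjusted p = 0.00523). That setting leaves C12 3 and ih_STC_BM 2 alone in their lines. Against MSC it gave 1.18 in ih_STC_BM and 0.54 for the mean of the lines.

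**Figure D2:**
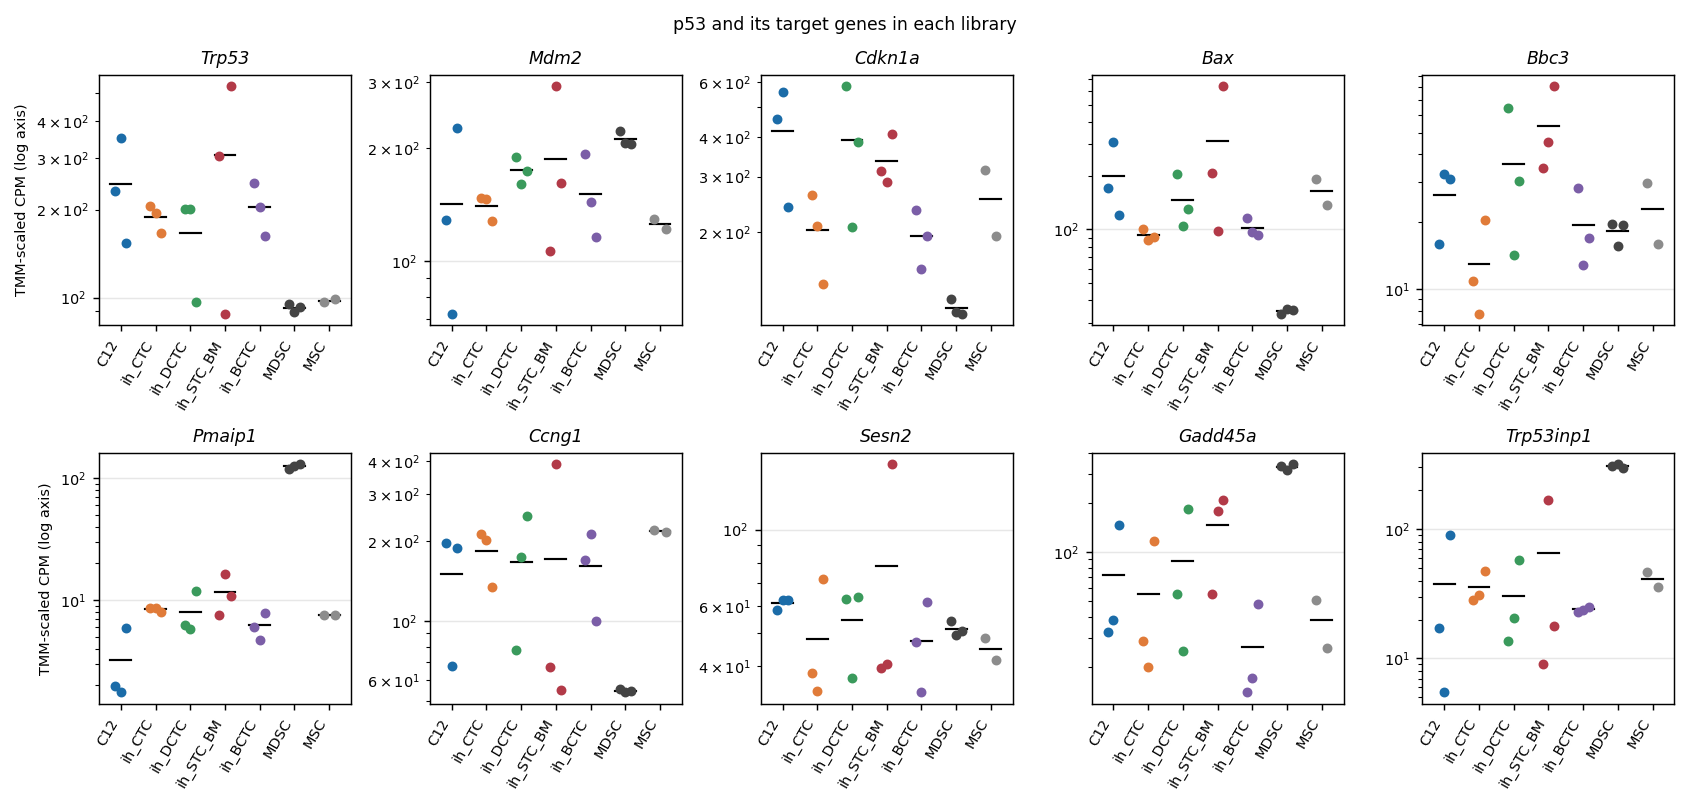
TMM-scaled CPM (vertical log axis, its range set for each gene) of the 10 genes in each of 20 libraries; points are libraries, grouped and coloured by cell type label, and black bars are group means. The 3 MDSC points sit together, below all line points for Cdkn1a and Bax and above all of them for Pmaip1, Gadd45a and Trp53inp1, while the libraries of 1 line are often far apart.

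Among the genes of cell cycle arrest, Cdkn1a (p21) was higher in all 15 line libraries than in any MDSC library. MDSC held 122, 111 and 109 CPM and MSC 315 and 194. C12 held 459.5, 560.5 and 240.3 CPM, ih_CTC 262, 209 and 136, ih_DCTC 584, 207 and 387, ih_STC_BM 312, 289 and 409.7 and ih_BCTC 235, 153 and 194. The MSC libraries fell inside the range of the lines, with 5 line libraries above both and 2 below both. Cdkn1a exceeded MDSC by 1.88 ± 0.38 (SE), adjusted p = 0.000441 in C12 and by 1.78 ± 0.38 (SE), adjusted p = 0.000718 in ih_DCTC, while ih_CTC missed the threshold (0.83 ± 0.37 (SE), adjusted p = 0.0708). It differed from MSC by 0.41 ± 0.42 (SE), adjusted p = 0.497 in ih_STC_BM and -0.39 ± 0.41 (SE), adjusted p = 0.493 in ih_BCTC. MDSC lay below MSC by -1.16 ± 0.41 (SE), adjusted p = 0.0287, a call lost without MSC 1 (-0.77, adjusted p = 0.271) and without MDSC 1, 2 or 3 (adjusted p = 0.0575, 0.0722 and 0.0735). In the order of means, C12, ih_DCTC, ih_STC_BM, MSC, ih_CTC, ih_BCTC and MDSC, no neighbours passed, and among the lines only C12 against ih_BCTC did (1.11 ± 0.38 (SE), adjusted p = 0.0451). Once the intron share entered the fit, the C12 and ih_DCTC calls were lost (0.79, adjusted p = 0.201, and 0.92, adjusted p = 0.0829). The ih_CTC difference passed without ih_CTC 3 (1.05, adjusted p = 0.039) and with upper quartile scaling (0.99, adjusted p = 0.0323). It also passed without the low-intron libraries (0.82, adjusted p = 0.0198) and with only the groups compared (0.77, adjusted p = 0.00858). In 7 of 10 alternatives that keep each library or leave out several, it did not pass.

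Ccng1, cyclin G1, was low in MDSC at 55.7, 53.99 and 54.6 CPM and high in MSC at 221 and 217. The line libraries covered the whole span between and beyond: 197, 67.5 and 188 CPM in C12, 213, 202 and 135 in ih_CTC, 77.8, 174 and 248 in ih_DCTC, 67.3, 390.0 and 55.1 in ih_STC_BM and 169.5, 213 and 100.4 in ih_BCTC. Of 15 line libraries, 14 lay above all MDSC libraries and 13 below both MSC libraries. Ccng1 exceeded MDSC by 1.46 ± 0.61 (SE), adjusted p = 0.0465 in C12, 1.74 ± 0.62 (SE), adjusted p = 0.023 in ih_CTC and 1.61 ± 0.61 (SE), adjusted p = 0.0321 in ih_DCTC, and MDSC lay below MSC by -2.00 ± 0.66 (SE), adjusted p = 0.0206. Of the 10 genes its means differed least among the lines (adjusted p = 1.0 for a difference among the 5). The differences from MSC were -0.36 in ih_STC_BM and -0.44 in ih_BCTC, and without ih_STC_BM 2, the highest library, the first of them passed (-1.84, adjusted p = 0.00939). All 3 calls against MDSC were lost without any 1 MDSC library (adjusted p 0.06 to 0.102), and they were also lost without C12 1 or C12 3 (0.133 and 0.107), without ih_CTC 1 or ih_CTC 2 (0.0586 and 0.0522) and without ih_DCTC 2 or ih_DCTC 3 (0.0592 and 0.129), as adjusted p. With the MDSC libraries summed to 1 all of these calls were lost too (adjusted p 0.197 to 0.276), and that of C12 also with RLE scaling, without the filter and by limma-voom (adjusted p = 0.0593, 0.0564 and 0.0695). The call of MDSC against MSC was lost without any of the 5 libraries (adjusted p 0.0539 to 0.0727).

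Gadd45a, a growth arrest and DNA damage gene, was highest in MDSC at 332, 316 and 342 CPM, above every line and MSC library. MSC held 51.03 and 25.9 CPM. The lines varied widely, at 32.6, 38.3 and 146 CPM in C12, 28.7, 19.9 and 117 in ih_CTC, 55.3, 24.98 and 183 in ih_DCTC, 55.6, 177 and 206 in ih_STC_BM and 13.97, 17.1 and 48.5 in ih_BCTC. In each line 1 library or 2 stood several times above the rest. The level fell against MDSC by 2.19 in C12 (SE 0.81, adjusted p = 0.0264), by 2.58 in ih_CTC (SE 0.82, adjusted p = 0.0132) and by 1.91 in ih_DCTC (SE 0.80, adjusted p = 0.0492), all on the log2 scale. MDSC exceeded MSC by 3.10 ± 0.9955 (SE), adjusted p = 0.0169, and ih_STC_BM and ih_BCTC differed from MSC by 1.93 ± 0.94 (SE), adjusted p = 0.128 and -0.54 ± 0.87 (SE), adjusted p = 0.669. The C12 call was lost without C12 1 or C12 2 (adjusted p = 0.0996 and 0.107), that of ih_CTC without ih_CTC 1 or ih_CTC 2 (0.0587 and 0.0585), that of ih_DCTC without ih_DCTC 1, ih_DCTC 2 or any MDSC library (0.0765 to 0.154), and that of MDSC against MSC without either MSC library (0.0625 and 0.131). All 4 calls were lost with the intron share as a covariate (C12 -1.02, adjusted p = 0.51; ih_CTC -1.98, adjusted p = 0.0659; ih_DCTC -0.88, adjusted p = 0.519; MDSC against MSC 1.65, adjusted p = 0.365) and with the MDSC libraries summed to 1 (adjusted p 0.0579 to 0.148), and those of C12 and ih_DCTC also without the low-intron libraries (-1.16, adjusted p = 0.383; -1.73, adjusted p = 0.0941). The gene overlaps E230016M11Rik on the other strand over 859 bases in the deposited annotation, 19 of its 20 expected counts are not whole, and no source used here says whether counting used the strand, so its value may hold reads of that transcript, which had 276 counts over all libraries.

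Of the genes of apoptosis, Bax was higher than in MDSC in every line and in MSC. MDSC held 33.6, 35.95 and 35.5 CPM and MSC 193 and 138. C12 held 169.8, 308 and 120.0 CPM, ih_CTC 100.1, 87.2 and 90.2, ih_DCTC 204, 105 and 131, ih_STC_BM 207, 98.4 and 638 and ih_BCTC 116, 96.98 and 92.9. The 15 line libraries all lay above all 3 MDSC libraries, and the MSC libraries fell among the lines. Bax exceeded MDSC by 2.51 ± 0.51 (SE), adjusted p = 0.000405 in C12, 1.40 ± 0.49 (SE), adjusted p = 0.0219 in ih_CTC and 2.07 ± 0.50 (SE), adjusted p = 0.00187 in ih_DCTC, and MDSC lay below MSC by -2.24 ± 0.54 (SE), adjusted p = 0.00257. In the order of means, ih_STC_BM, C12, MSC, ih_DCTC, ih_BCTC, ih_CTC and MDSC, only the last neighbours passed. ih_STC_BM differed from MSC by 0.93 ± 0.55 (SE), adjusted p = 0.215. Without ih_STC_BM 2 that value passed (1.31, adjusted p = 0.0305), and without ih_STC_BM 3 it was -0.0566. With the intron share as a covariate it passed (1.14, adjusted p = 0.0056). Without the low-intron libraries, which leaves ih_STC_BM 2 alone, it turned to -0.78. ih_STC_BM exceeded ih_CTC and ih_BCTC (log2 differences of 1.76 and 1.62, adjusted p = 0.0214 and 0.0283), with a range inside ih_STC_BM from 98.4 to 638 CPM. The ih_CTC call was lost without ih_CTC 1 or any MDSC library (adjusted p 0.0526 to 0.0629), those of ih_CTC and ih_DCTC with MDSC summed to 1 (0.215 and 0.0687), all 3 calls against MDSC were lost with the intron share as a covariate (0.21, 0.40 and 0.30), and MDSC against MSC then read 0.08.

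Bbc3 (Puma) was measured at low and scattered levels. MDSC held 19.5, 15.6 and 19.3 CPM and MSC 29.9 and 15.98, C12 held 15.9, 32.6 and 30.96, ih_CTC 10.9, 7.75 and 20.3, ih_DCTC 64.4, 14.2 and 30.5, ih_STC_BM 34.7, 45.3 and 80.9 and ih_BCTC 28.3, 12.8 and 16.998. The 3 ih_STC_BM libraries lay above both MSC libraries and the 3 ih_CTC libraries below ih_STC_BM without overlap. None of the 6 comparisons passed, with log2 differences from -0.48 in ih_CTC against MDSC to 1.23 in ih_STC_BM against MSC. Bbc3 differed among the 5 lines (adjusted p = 0.0307), with ih_CTC lower than ih_STC_BM by -2.05 ± 0.52 (SE), adjusted p = 0.014, and ih_STC_BM exceeded MDSC by 1.56 ± 0.51 (SE), adjusted p = 0.0141. The difference among lines was lost without ih_CTC 1, ih_CTC 2, ih_BCTC 2, ih_BCTC 3 or ih_STC_BM 3 (adjusted p 0.0503 to 0.0835), and with the 5 low-intron libraries left out and with only the lines fitted (adjusted p = 0.0814 and 0.065). ih_DCTC differed from MDSC by 0.998 (SE 0.51, adjusted p = 0.101), a value that became 1.38 (adjusted p = 0.0243) without ih_DCTC 2 and 0.30 (adjusted p = 0.634) without ih_DCTC 1.

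Pmaip1 (Noxa) showed the widest gap of the 10 genes. The MDSC libraries held 119.9, 126 and 131 CPM, and no other library exceeded 16.5. C12 held 1.98, 1.75 and 5.88 CPM, ih_CTC 8.56, 8.57 and 8.05, ih_DCTC 6.23, 5.79 and 11.97, ih_STC_BM 7.52, 16.5 and 10.9, ih_BCTC 6.01, 4.73 and 7.87 and MSC 7.602 and 7.55. The lines and MSC thus lay together, far below MDSC. Against MDSC the log2 difference was -5.26 ± 0.47 (SE), adjusted p = 4.99e-08 in C12, -3.90 ± 0.44 (SE), adjusted p = 7.49e-07 in ih_CTC and -3.97 ± 0.44 (SE), adjusted p = 6.36e-07 in ih_DCTC, and MDSC exceeded MSC by 4.05 ± 0.52 (SE), adjusted p = 8.89e-06. These 4 calls held without each library in turn and under every alternative fit. Within the lines C12 was lowest, below ih_CTC (-1.36 ± 0.41 (SE), adjusted p = 0.0328), ih_STC_BM (-1.84 ± 0.42 (SE), adjusted p = 0.0114) and MSC (-1.21 ± 0.45 (SE), adjusted p = 0.0474). C12 1 and C12 2 set that mean, C12 3 read 5.88 CPM, and the difference among the 5 lines (adjusted p = 0.0254) was lost without C12 1, C12 2 or ih_STC_BM 2 (adjusted p = 0.0946, 0.103 and 0.0541).

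Of the stress genes, Trp53inp1 followed the same side as Pmaip1. MDSC held 307, 316 and 298 CPM and MSC 46.2 and 35.5, while C12 held 17.3, 5.48 and 90.4, ih_CTC 28.2, 30.9 and 47.5, ih_DCTC 13.6, 20.4 and 57.3, ih_STC_BM 9.002, 168 and 17.7 and ih_BCTC 22.98, 23.8 and 25.04. All 15 line libraries lay below MDSC, and 11 lay below both MSC libraries. The log2 difference from MDSC was -3.02 ± 0.95 (SE), adjusted p = 0.0109 in C12, -3.11 ± 0.96 (SE), adjusted p = 0.0105 in ih_CTC and -3.33 ± 0.97 (SE), adjusted p = 0.00684 in ih_DCTC. MDSC exceeded MSC by 2.91 ± 1.12 (SE), adjusted p = 0.0415, a call lost without any 1 of the 5 libraries (adjusted p 0.0636 to 0.185). ih_STC_BM read 0.67 against MSC and turned to -1.64 without ih_STC_BM 2. With the intron share as a covariate the C12 difference turned (0.40, adjusted p = 0.664) and those of ih_CTC and ih_DCTC no longer passed (-1.19, adjusted p = 0.0656; -0.22, adjusted p = 0.799).

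Sesn2, which restrains mTORC1, passed in none of the 21 pairs of groups. Means ran from 44.96 ± 4.60 CPM (SD, n = 2) in MSC to 78.3 ± 66.5 CPM (SD, n = 3) in ih_STC_BM. The libraries read 58.5, 62.2 and 62.2 CPM in C12, 38.3, 33.95 and 71.6 in ih_CTC, 62.9, 36.9 and 63.5 in ih_DCTC, 39.5, 40.4 and 155 in ih_STC_BM, 46.9, 33.6 and 61.5 in ih_BCTC, 54.2, 49.2 and 50.6 in MDSC and 48.2 and 41.7 in MSC. ih_STC_BM 3 stood apart, and the other libraries lay between 33.6 and 71.6 CPM. Differences from MDSC were 0.25 ± 0.44 (SE), adjusted p = 0.638 in C12, -0.10 ± 0.43 (SE), adjusted p = 0.865 in ih_CTC and 0.08 ± 0.43 (SE), adjusted p = 0.882 in ih_DCTC. A p above the threshold does not show equal levels.

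Among the 5 lines, tested with no precursor group as reference, 3 of the 10 genes differed by the edgeR F test (Pmaip1, Bbc3 and Bax), where 33.2% of all tested genes did, and Cdkn1a lay just past the threshold (adjusted p = 0.0565). The adjusted p was 0.0327 for Bax, and that call was lost without any 1 of the ih_CTC or ih_BCTC libraries or ih_STC_BM 3 (adjusted p 0.0506 to 0.0713). The Bax call was also lost by limma-voom (adjusted p = 0.112), and in edgeR with the intron share as a covariate (0.0515) and with only the lines fitted (0.0769). It was lost too without the low-intron libraries, which leaves C12 and ih_STC_BM with 1 library each. Single pairs with calls were C12 against ih_CTC (1 gene, beside 16.5% of all genes), C12 against ih_STC_BM (1, beside 7.53%), C12 against ih_BCTC (1, beside 20%), ih_CTC against ih_STC_BM (2, beside 18.2%) and ih_STC_BM against ih_BCTC (2, beside 20.4%). The other 5 pairs of lines had 0 calls among the 10 by edgeR: C12 and ih_DCTC (beside 12.2% of all genes, with 1 of the 10 at an unadjusted p under 0.05), ih_CTC and ih_DCTC (8.21%, 2), ih_CTC and ih_BCTC (6.29%, 0), ih_DCTC and ih_STC_BM (10.9%, 1) and ih_DCTC and ih_BCTC (0%, 2). DESeq2 and limma-voom were not run on pairs of lines. ih_STC_BM and ih_BCTC differed in Gadd45a (2.46 ± 0.82 (SE), adjusted p = 0.043) and Bax (1.62 ± 0.49 (SE), adjusted p = 0.0283). Without ih_STC_BM 2, Trp53 and Cdkn1a also differed among the lines (adjusted p = 0.0304 and 0.0296), and Cdkn1a passed too without C12 3, ih_DCTC 1, ih_DCTC 2 or ih_STC_BM 3 (adjusted p 0.0166 to 0.0417). Cdkn1a also passed by DESeq2 (adjusted p = 0.0106), and in edgeR with RLE scaling (0.0484), upper quartile scaling (0.0368) and no filter (0.0447). In the other 4 of 8 alternatives it did not pass.

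The line libraries differed in the share of reads in introns, and 2 of the 10 genes did not overlap between the libraries under 3% and the rest, where 16% of all tested genes did not. Among the 15 line libraries, the 5 under 3% held Bax at 169.8 to 637.6 CPM (median 206.8) and the other 10 at 87.2 to 130.8 (median 99.3), without overlap. Trp53inp1 ran the other way, 5.48 to 17.7 CPM against 20.4 to 167.9, again without overlap. Trp53 (medians 306 and 181 CPM), Cdkn1a (459.5 and 222 CPM) and Ccng1 (67.5 and 195 CPM) differed in the medians with overlapping ranges. Mdm2, Bbc3, Pmaip1, Sesn2 and Gadd45a overlapped as well, with medians of 128, 34.6, 6.23, 62.2 and 55.3 CPM in the 5 and 154, 18.6, 7.96, 43.7 and 38.6 CPM in the 10. All 3 MDSC libraries lie above the intron share of every line library, so the share and the MDSC label cannot be told apart beyond 8.52%. With the share as a covariate the number of the 10 genes called became 2, 2 and 2 in C12, ih_CTC and ih_DCTC against MDSC, beside 46.6%, 58.1% and 53.1% of all tested genes in that fit. It became 5 and 3 in ih_STC_BM and ih_BCTC against MSC (beside 50.5% and 46.8%), and 3 in MDSC against MSC (beside 41.8%). The 2 that stayed in the first comparisons were Pmaip1 and Ccng1 in each, Ccng1 then at 3.99, 2.96 and 3.51 above MDSC on the log2 scale. What sets the share was not tested.

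**Figure D3:**
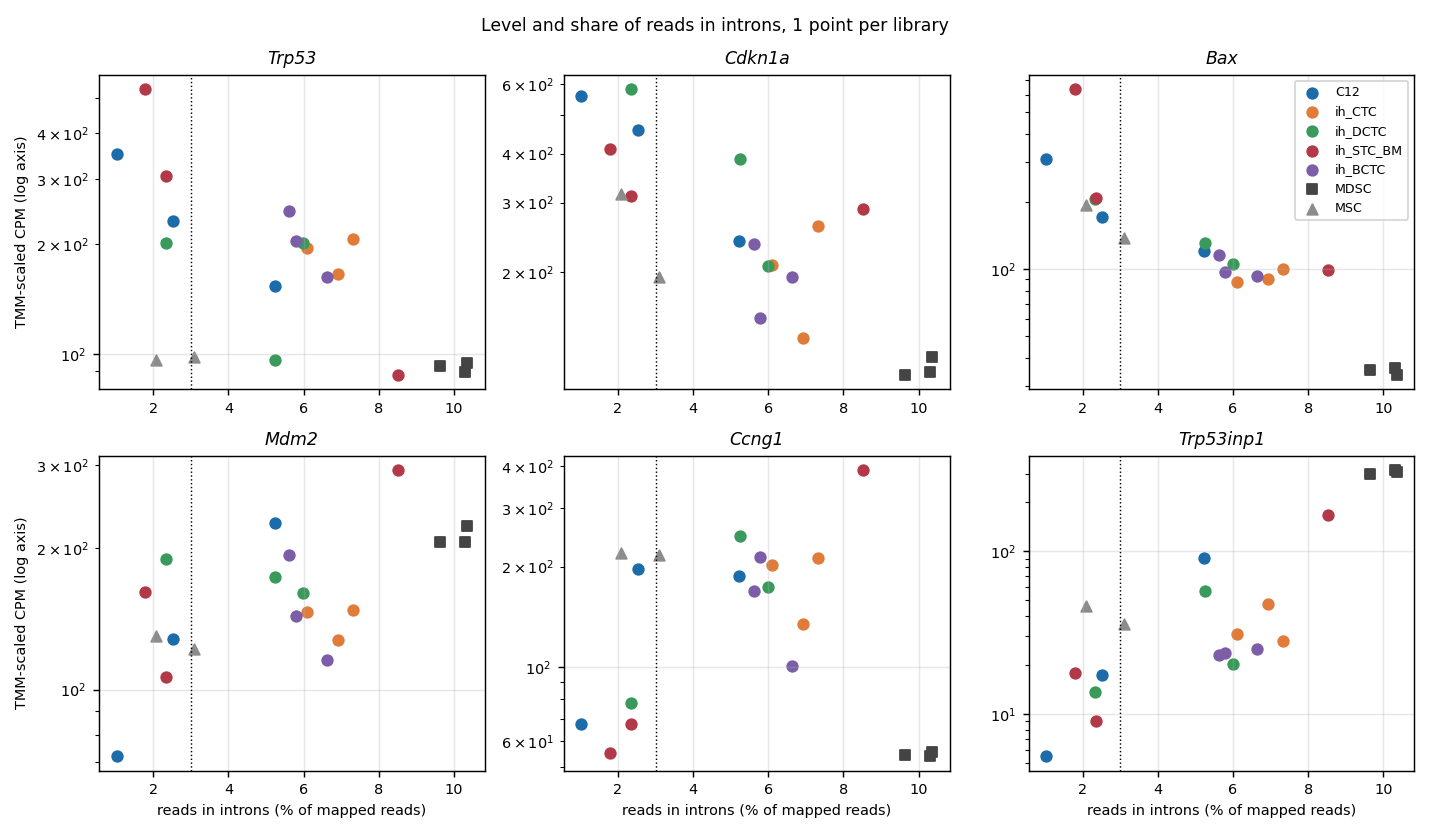
TMM-scaled CPM (vertical log axis) against the percent of mapped reads in introns (horizontal axis) for 6 of the genes; each point is 1 of 20 libraries, circles are lines, squares MDSC and triangles MSC, and the dotted line marks 3%. The 5 line libraries left of the dotted line hold the highest Bax and the lowest Trp53inp1 of the lines, and the MDSC squares stand right of every line library.

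The genes around p53 were followed in lists that, like the 10 genes, were chosen with earlier results of these data known. Of 20 control genes (kinases, ubiquitin ligases and cofactors), 19 were tested. Against MDSC, C12 had 2 higher and 9 lower, ih_CTC 1 higher and 7 lower and ih_DCTC 2 higher and 6 lower, with medians of -0.96, -0.41 and -0.78 on the log2 scale. MDSC against MSC gave 8 higher and 3 lower. Mdm4, the partner of Mdm2 that blocks p53, fell by 2.66 in C12 against MDSC (54.2 ± 64.5 against 344 ± 13.8 CPM, adjusted p = 0.0209). Crebbp, an acetyltransferase and coactivator of p53, fell by 2.16 in C12 and fell by 2.11 in ih_DCTC (adjusted p = 0.00072 and 0.000915). Ppm1d, the phosphatase Wip1 that switches p53 signalling off, fell by 1.69 in ih_CTC (adjusted p = 1.01e-05), and Ppp1r13b, which steers p53 towards apoptosis genes, fell by 2.35 there. Ppp1r13l, which inhibits p53, rose in all 3 lines, by 2.90 in C12, 2.77 in ih_CTC and 4.32 in ih_DCTC, from 2.21 ± 0.37 CPM in MDSC. Against MSC, the kinase genes Atm and Chek1 rose in ih_BCTC (2.10 and 1.91, adjusted p = 0.0482 and 0.0191). In ih_BCTC 4 of the 19 were higher and 2 lower, beside 15.9% and 20.8% of all tested genes. ih_STC_BM against MSC gave 0 higher and 3 lower, beside 14.8% and 17.4%.

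Cdkn2a, which encodes p16INK4a and the p53 activator p19ARF, was present in MSC and at or near 0 counts in the lines. The 2 MSC libraries held 20.3 and 21.8 CPM, 440 counts together. C12, ih_CTC, ih_DCTC and ih_BCTC had 0 counts each over 3 libraries, ih_STC_BM had 1 count, and MDSC had 6. A floor of 3 counts over the group puts Cdkn2a at least 217-fold lower than in MSC in C12, 241-fold in ih_CTC, 227-fold in ih_DCTC and 252-fold in ih_BCTC; floors cover counting error only. By edgeR the adjusted p against MSC was 0.000208 in ih_STC_BM, 8.66e-05 in ih_BCTC and 0.00028 in MDSC. These counts do not separate the transcripts of the gene, and they do not tell deletion from lack of transcription.

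Of 30 further p53 targets, all tested, more rose than fell in the lines against MDSC. C12 had 15 higher and 8 lower, beside 31.3% and 30.5% of all tested genes. ih_CTC had 12 higher and 8 lower (28.2% and 27.1%) and ih_DCTC 14 higher and 6 lower (31.2% and 28.1%). The medians were 1.25, 0.83 and 0.86, beside 0.03, 0.08 and 0.09 over all tested genes. MDSC against MSC gave 4 higher and 11 lower, beside 20.4% and 25.6% of all tested genes. Against MSC, ih_STC_BM gave 8 and 2 (14.8% and 17.4%) and ih_BCTC 6 and 6 (15.9% and 20.8%). Eda2r, a death receptor of the TNF family, and Ak1, an adenylate kinase, rose most: Eda2r stood at 0.0736 CPM in MDSC and at 28.2 ± 12.9 CPM in C12 and 33.8 ± 2.71 in ih_CTC, and Ak1 at 0.34 CPM in MDSC and 159 ± 75.5 in C12. Btg2, an antiproliferative gene that is also an immediate early gene, and Sfn (14-3-3 sigma) fell most, Btg2 from 555 ± 7.44 CPM in MDSC to 25.8 ± 23.7 in C12. Sesn1, a relative of Sesn2, fell by 2.07 in ih_STC_BM and fell by 3.23 in ih_BCTC against MSC (adjusted p = 0.000712 and 8.73e-06), and Ddit4, another restraint on mTORC1, rose by 3.73 and 2.28 there (0.00388 and 0.0384). Phlda3, which restrains Akt, and Zmat3, an RNA-binding protein, were looked at after their values were seen. Phlda3 read 1.65 ± 0.43 CPM in MDSC, 94.0 ± 19.2 in MSC and 104 to 390 on average in the lines, and Zmat3 read 5.87 ± 0.99, 48.1 ± 0.95 and 67.1 to 143.

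**Figure D4:**
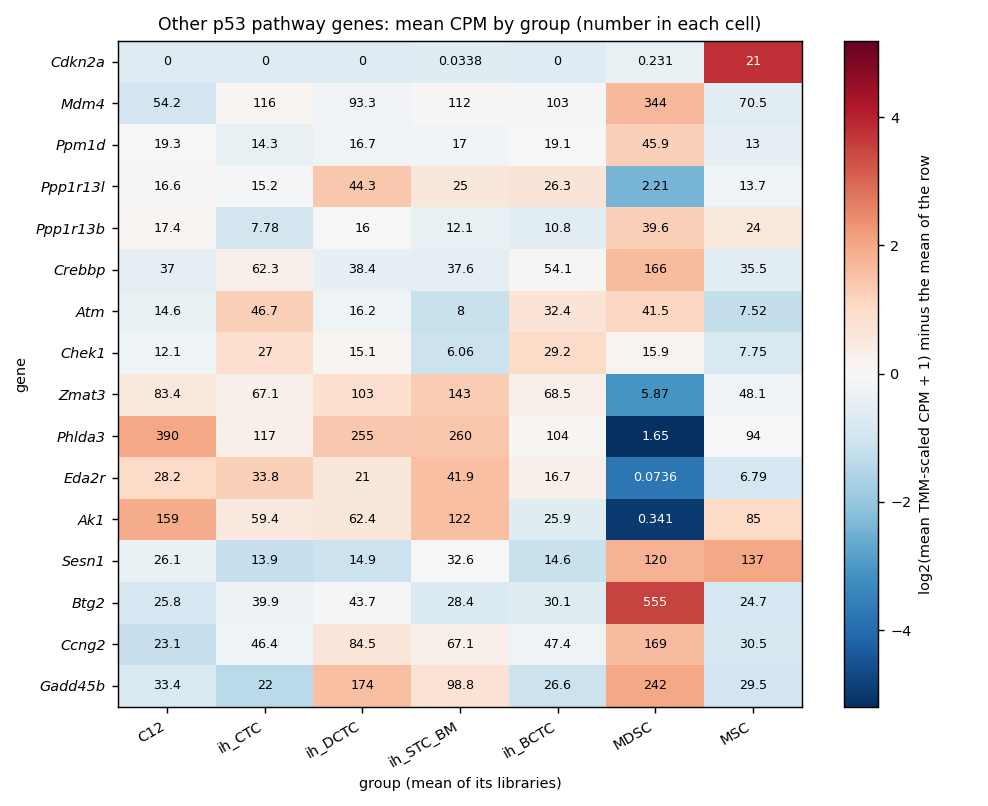
Mean TMM-scaled CPM of 16 other p53 pathway genes (rows) in the 7 groups (columns); the number in a cell is the mean, and the colour is log2 of the mean plus 1 less the mean of its row, so colours compare groups within a gene. Cdkn2a stands out in MSC, Btg2 and Mdm4 in MDSC, and Zmat3, Phlda3, Eda2r and Ak1 are lowest in MDSC.

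Relatives of the 10 genes also differed from MDSC, where 61.7%, 55.3% and 59.3% of all tested genes were called in C12, ih_CTC and ih_DCTC. The shares in each direction are those given with the first list. Of 8 such genes, 0 rose and 6, 6 and 5 fell in C12, ih_CTC and ih_DCTC against MDSC, among them Gadd45b (242 ± 6.79 CPM in MDSC against 33.4 ± 7.27 in C12) and the cyclin gene Ccng2 (169 ± 5.35 against 23.1 ± 5.20). Cdkn1b (p27) and Sesn3 rose against MSC in ih_STC_BM (1.31 and 2.13) and in ih_BCTC (1.26 and 2.50). Of 11 tested BCL2 family genes, 4 rose and 5 fell in C12 against MDSC, while ih_CTC had 3 higher and 6 lower and ih_DCTC 3 higher and 5 lower. Mcl1, the survival protein that Noxa binds, fell with Pmaip1, from 1317 ± 28.3 CPM in MDSC to 211 ± 32.9 in C12 and 176 ± 29.5 in ih_CTC (adjusted p = 4.33e-06 and 1.59e-06), and it fell by 1.24 in ih_STC_BM against MSC (adjusted p = 0.0125). Bok, a relative of Bax, rose from 0.11 CPM in MDSC to 93.1 ± 69.8 in C12, and Bcl2l1, which encodes the survival protein Bcl-xL, from 44.9 ± 2.55 to 170.5 ± 15.5.

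Other programmes that can act on some of these genes also differed, beside the same shares of all tested genes given with the first list. Of all tested genes, 61.7%, 55.3% and 59.3% were called in C12, ih_CTC and ih_DCTC against MDSC, and 46% in MDSC against MSC. Set against MDSC, the 12 ATF4 targets gave 6 higher and 3 lower for C12, 7 higher and 4 lower for ih_CTC, then 7 higher and 2 lower for ih_DCTC; Trib3 rose in all 3, from 3.53 ± 0.50 CPM to 157 ± 62.5, 63.3 ± 91.8 and 95.3 ± 57.4, while Atf3 fell from 410.5 ± 1.87 to 10.7 ± 10.8 in C12, to 8.43 in ih_CTC (range 1.54 to 21.1) and to 12.6 ± 9.73 in ih_DCTC. In ih_BCTC against MSC Atf3 fell by 6.02 (adjusted p = 0.0058). Of 10 immediate early genes, which rise within minutes of stress or handling, 9, 8 and 8 were lower in C12, ih_CTC and ih_DCTC than in MDSC, 0, 0 and 1 were higher, and 9 were higher and 0 lower in MDSC than in MSC. The 1 that rose was Ier3, at 1218 ± 763 CPM in ih_DCTC and 201.5 ± 5.96 in MDSC (adjusted p = 0.00282). Against MSC, 2 were higher and 0 lower in ih_STC_BM and likewise in ih_BCTC. Fos and Fosb stood at 2030 ± 50.4 and 2029 ± 41.1 CPM in MDSC and at 20.4 ± 33.7 and 17.1 ± 26.1 in C12. The part of these genes in the levels of Pmaip1, Gadd45a and Trp53inp1, which were also higher in MDSC, was not tested.

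Likeness of pattern was measured as Pearson r of log2 CPM over the 7 group means, which is a description over few points that all share the gap between MDSC and the rest. Among the 10 genes, Pmaip1 and Trp53inp1 were most alike (r = 0.965), followed by Bax and Cdkn1a (0.91), and Ccng1 and Gadd45a ran most oppositely (-0.90). Trp53 had r of 0.59 with both Cdkn1a and Bax, -0.28 with Mdm2 and -0.74 with Trp53inp1. Over all tested genes, the patterns most like Trp53 were those of Map2, Rpusd2 and Gnb1l (r = 0.99), those most like Cdkn1a of Trappc6a, Tmem53 and Park7 (0.98), and those most like Bax of Dok1, Plbd2 and Dhrs7b (0.997 to 0.998). Mdm2 was closest to Tgif1, Ccng2 and Taf8, with Ccng2 at 0.98. Pmaip1 was closest to Rabgef1, Ccdc134 and Ppox (0.99 to 0.98) and Trp53inp1 to Gimap6, Sept1 and Fbxl22 (0.99). Ccng1 was closest to Wrb (0.996), Bbs10 and Col12a1, Gadd45a to Vgll4 (0.99), Whamm and Ulk1, Bbc3 to Fars2 (0.98), Txlnb and Zbtb7b, and Sesn2 to Nudt8 (0.97), Rps9 and Mpst.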

How the data were processed

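RNA of cultured nude mouse cells was sequenced as 20 TruSeq libraries in 7 groups, per the labels' protocols. The authors deposited 1 table of expected counts per Ensembl gene, unscaled, of which 8.37% of values are not whole. A deposited table of alignment quality holds other items such as the share of mapped reads in introns, a fraction printed here as a percent, and per its rows reads were 150 bases long. Per the submitters' processing notes the tools were STAR, RSEM 1.2.26 and DESeq2, with no roles given, and no source used here names the genome build.

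Expected counts were rounded, genes kept by filterByExpr by group (15779 of 43432; minimum count 10, minimum total 15), scaled by TMM and fitted in edgeR 4.0.16 (R 4.3.3; quasi-likelihood test, robust, two-sided, 1 mean per group, all 20 libraries, 13 residual degrees of freedom). P-values were adjusted by Benjamini-Hochberg over all tested genes within each comparison and called under 0.05, and fold changes are log2 with standard errors from the F statistic. Each sentence that prints an adjusted p uses this edgeR test unless it names another tool. The labels name MDSC and MSC as precursors without tying them to single lines: by the cell type in their label, C12, ih_CTC and ih_DCTC were set against MDSC and ih_STC_BM against MSC, and ih_BCTC, not in the labels' list, was set against MSC. The fit was tested on simulated data with known changes.

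The 10 genes and all lists were chosen with earlier results of these data known. The 10 genes are named in every comparison; each list gives up to 2 called genes that rose most and 2 that fell most (5 CPM or more in the group where they are higher), likeness gives the 3 genes of highest Pearson r, and other named genes are said to be chosen after their values were seen or are shown in the heat map only. Alternatives were scaling by RLE or by upper quartile, fitting all genes unfiltered, DESeq2 1.42.0, limma-voom (limma 3.58.1), intron share as a covariate, leaving out 5 low-intron libraries, MDSC summed to 1, fits of the compared groups only, a fold threshold, and leaving out each library. Replicate numbers follow the order of the samples and only name libraries. Of the 10 genes, 5 have the same start and end in GENCODE M21. Figures and tables used Python 3.11.15, numpy 2.4.6, pandas 2.3.3 and matplotlib 3.10.9.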

Additional observations from a re-analysis of the deposited data

Results flagged for a closer look

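Pmaip1 differed between C12 and ih_CTC, the lines labelled as macrophages, when both were set against MDSC: C12 lay lower by a log2 difference of -1.36 (adjusted p = 0.0328, edgeR test of the difference itself), with 1.98, 1.75 and 5.88 CPM in C12 and 8.56, 8.57 and 8.05 CPM in ih_CTC. Against MSC, ih_STC_BM and ih_BCTC differed in Gadd45a by 2.46 (adjusted p = 0.043), with all 3 libraries of ih_STC_BM (55.6, 177 and 206 CPM) above all 3 of ih_BCTC (14.0, 17.1 and 48.5 CPM). The same lines differed in Bax by 1.62 (adjusted p = 0.0283), where ih_STC_BM 2 at 98.4 CPM lay inside the ih_BCTC range of 92.9 to 115.9 CPM. The groups hold 3 libraries or 2, too few for a test of single outlying samples.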

How the results depend on the processing

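No paired analysis was possible because the labels carry no replicate numbers. All alternatives were listed with earlier results of these data known. The number of the 10 genes called was 7 for C12 against MDSC, 5 for ih_CTC against MDSC, 6 for ih_DCTC against MDSC, 1 for ih_STC_BM against MSC, 0 for ih_BCTC against MSC, 6 for MDSC against MSC, 3 for the lines among themselves and 0 for the mean of the lines against MSC, and it moved by over 1.5 times in these cases. With upper quartile scaling, the mean of the lines against MSC had 1, beside 6282 of 15779 tested genes. With no filter on low counts, the mean of the lines against MSC had 1, beside 6193 of 24169. With DESeq2, the mean of the lines against MSC had 1, beside 6525 of 15719. With limma-voom, ih_STC_BM against MSC had 0, beside 5153 of 15779. With a covariate for the intron share, C12, ih_CTC and ih_DCTC against MDSC had 2 each, beside 46.6%, 58.1% and 53.1% of all tested genes. ih_STC_BM against MSC had 5, ih_BCTC against MSC 3 and MDSC against MSC 3, beside 50.5%, 46.8% and 41.8%. The mean of the lines against MSC had 3, beside 8423 of 15779 genes. With the 5 low-intron libraries left out, ih_CTC against MDSC had 8, beside 11343 of 16347 tested genes, and ih_BCTC against MSC had 2, beside 9213 of 16347. The counts of ih_STC_BM and of the mean of the lines against MSC moved as well, but lines are then left with 1 library. With the MDSC libraries summed to 1, the counts of C12, ih_CTC and ih_DCTC against MDSC and of MDSC against MSC fell. Calls over all tested genes fell there too. MDSC is then left with 1 library, so no count is given. With only the groups compared, ih_CTC against MDSC had 8, beside 11335 of 13960 tested genes, and ih_STC_BM against MSC had 0, beside 1904 of 13179. In the same setting ih_BCTC against MSC had 3, beside 8042 of 13761, and the lines among themselves had 0, beside 3387 of 13832. Leaving out 1 library gave counts of 5 to 7 for C12 against MDSC, 2 to 6 for ih_CTC against MDSC, 4 to 5 for ih_DCTC against MDSC, 0 to 3 for ih_STC_BM against MSC, 0 to 0 for ih_BCTC against MSC, 2 to 3 for MDSC against MSC, 1 to 4 for the lines among themselves and 0 to 1 for the mean of the lines against MSC. Where this or the low-intron setting leaves 1 library in a group, that library is assumed to vary like the other groups. Shares of all tested genes in the fits without 1 library are not given here. Upper quartile scaling put the log2 median over all tested genes at 0.30, 0.25 and 0.31 in C12, ih_CTC and ih_DCTC against MDSC, where TMM put it at 0.03, 0.08 and 0.09. Signs turned in these cases, on the log2 scale. RLE scaling turned ih_DCTC against MDSC (Sesn2 -0.0501) and MDSC against MSC (Trp53 0.0288). Upper quartile scaling turned ih_CTC against MDSC (Sesn2 0.0793). DESeq2 turned ih_DCTC against MDSC (Sesn2 -0.0499) and MDSC against MSC (Trp53 0.0288). Limma-voom turned ih_STC_BM against MSC (Trp53inp1 -0.37). A covariate for the intron share turned C12 against MDSC (Trp53 -0.68, Mdm2 0.44, Bbc3 -0.29, Sesn2 -0.69, Trp53inp1 0.40), ih_DCTC against MDSC (Trp53 -0.68, Mdm2 0.62, Sesn2 -0.68), ih_STC_BM against MSC (Trp53inp1 -1.37), ih_BCTC against MSC (Mdm2 -0.26, Cdkn1a 0.11, Bax 0.37, Bbc3 0.18), MDSC against MSC (Trp53 2.02, Mdm2 -0.41, Bax 0.0812, Bbc3 0.58, Trp53inp1 -1.47) and the mean of the lines against MSC (Mdm2 -0.059, Bax 0.53). The 5 low-intron libraries left out turned C12 against MDSC (Mdm2 0.11), ih_DCTC against MDSC (Sesn2 -0.0724), ih_STC_BM against MSC (Trp53 -0.19, Bax -0.78, Ccng1 0.80, Sesn2 -0.19) and the mean of the lines against MSC (Cdkn1a -0.12, Pmaip1 0.12, Trp53inp1 0.39). The MDSC libraries summed to 1 turned ih_DCTC against MDSC (Sesn2 -0.0121) and MDSC against MSC (Trp53 0.0173). Over single libraries left out, values crossed 0 in ih_CTC against MDSC (Sesn2 -0.51 to 0.0987), ih_DCTC against MDSC (Sesn2 -0.0418 to 0.30), ih_STC_BM against MSC (Bax -0.0566 to 1.31, Ccng1 -1.84 to 0.11, Sesn2 -0.12 to 1.12, Trp53inp1 -1.64 to 1.19), ih_BCTC against MSC (Cdkn1a -0.70 to 0.0026, Bbc3 -0.62 to 0.28, Sesn2 -0.16 to 0.27, Gadd45a -1.31 to 0.0341), MDSC against MSC (Bbc3 -0.72 to 0.18) and the mean of the lines against MSC (Cdkn1a -0.10 to 0.60, Bax -0.32 to 0.16, Bbc3 -0.18 to 0.73, Trp53inp1 -0.59 to 0.0344). Of all values of single genes under all alternatives, 1169 kept their direction and side of the threshold, 108 lost the call, 58 gained one and 57 turned. The fold threshold is among these alternatives. It reuses the main fit, and all called genes already lay past it, so its values could only keep their side. Apart from fewer libraries or genes where the alternative takes them away, the cause was not tested.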
